A study of Homo sapiens with 8 samples.

Results

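The 10 genes described here encode the catalytic subunit of telomerase (TERT), the proteins that hold and deliver the telomerase RNA (DKC1, NOP10, NHP2, GAR1 and WRAP53) and 4 of the proteins of shelterin, the complex that covers chromosome ends (POT1, TERF1, TERF2 and TINF2). The 10 were chosen by name from 60725 genes in the count table, and the Ensembl identifiers of the table were matched to GENCODE symbols. The list was drawn up with the lower TERT level in both knockdowns, relative to control, already known from these libraries. The changes of the 10 genes against control are therefore given as a description, without p-values, and counts of those that passed the test run on all genes are printed beside the share of all genes, with nothing read from them. All 10 genes had enough reads to enter the fit of 16367 genes that compared both knockdowns with control, and their levels in control cells alone would have been enough for this.

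The libraries came from 1 clone (SC9) of HAP1, a near-haploid human cell line derived from a chronic myeloid leukaemia line. The clone expressed dCas9-KRAB, an inactive Cas9 fused to a repressor domain that silences the promoter to which a guide RNA directs it (CRISPRi). Cells received a lentiviral guide RNA against ADAM22 (the negative control, pLB187, 3 libraries), NELFE (3 libraries) or NELFB (2 libraries), were selected with puromycin and harvested 144 h after transduction. NELFE and NELFB are subunits of NELF, a complex that holds RNA polymerase II in a paused state shortly after initiation. All groups thus shared the dCas9-KRAB protein, the vector and the drug, each target was hit by 1 guide RNA, and the target of the control guide RNA was itself an expressed gene. Polyadenylated RNA was read as single-end reads of 65 bases, of which 22037423 to 24444185 per library were counted on genes. The values below are counts per 1000000 reads (CPM) with TMM normalization in edgeR.

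HAP1 has no single defining marker gene. Of 9 markers of blood, erythroid, epithelial and endothelial cells, HBG1 and KRT5 had no read in any library and the 9 together summed to between 0.262 and 0.600 CPM in control, 0.773 and 1.49 CPM in NELFE knockdown and 1.28 and 3.40 CPM in NELFB knockdown libraries. The most abundant of the 9 in knockdown cells was CD34, at 0.0989 CPM in control, 0.741 CPM in NELFE knockdown and 1.84 CPM in NELFB knockdown cells on average. Its log2 fold change over both knockdowns was 3.50 (SE 0.87, edgeR adjusted p = 0.0142), and it was not called without control replicate 1 (edgeR adjusted p = 0.0610) or 3 (edgeR adjusted p = 0.0692), nor with no filter on low counts (edgeR adjusted p = 0.0973). Whether the marker bears on the genes below was not tested. The fibroblast gene COL1A1 was at 22.9 CPM and the pluripotency genes SOX2 and POU5F1 at 736 and 537 CPM in control cells (reads from any introduced copies of these could not be told from those of the endogenous genes), and none of the 3 was called between knockdown and control cells. Within their groups, control replicate 1 and NELFE knockdown replicate 3 stood apart. A chi-square statistic of the counts per degree of freedom was 17.1 and 29.4 between control replicate 1 and the other two control libraries, which differed from each other by 5.76. It was 21.1 and 21.4 between NELFE knockdown replicate 3 and the other two, which differed by 4.25. Mitochondrial genes took 4.62%, 3.72% and 3.48% of the counts in the control libraries, 4.26%, 4.47% and 4.36% in the NELFE knockdown and 4.81% and 5.01% in the NELFB knockdown, so that the NELFB libraries were the highest. The 10 most abundant genes of a library took between 4.07% and 4.67% in control and between 4.70% and 5.29% in knockdown libraries, without overlap. Whether these shares bear on the genes below was not tested.

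Telomerase adds telomeric repeats to chromosome ends by reverse transcription of its RNA subunit, TERC. Most somatic cells do not express TERT, whereas stem cells and most cancer cell lines do, and the amount of TERT is commonly what limits the enzyme. Dyskerin (DKC1), NOP10, NHP2 and GAR1 bind TERC as they bind all H/ACA small nucleolar RNAs, WRAP53 (TCAB1) brings the particle to Cajal bodies, and shelterin protects telomeres and recruits telomerase to them.

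TERT (ENSG00000164362) lies on the minus strand of chromosome 5, from 1253147 to 1295068 in GRCh38, and its canonical transcript has 16 exons. The 250 bases before its start in RefSeq, chr5:1295069-1295318 on the minus strand, are shown because this is the promoter of the gene with the largest change. Capitals mark the E-box CACGTG, the letters at which dimers of MAX with MYC or with MXD proteins can bind, and copies of the GC box GGGCGG, here on the opposite strand as CCGCCC, the letters at which SP1 can bind.

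TERT: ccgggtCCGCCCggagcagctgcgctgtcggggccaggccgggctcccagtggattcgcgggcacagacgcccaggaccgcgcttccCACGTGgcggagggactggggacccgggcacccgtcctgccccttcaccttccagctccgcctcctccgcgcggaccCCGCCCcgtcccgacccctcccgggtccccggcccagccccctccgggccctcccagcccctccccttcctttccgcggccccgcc

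The E-box began 163 bases before the start, and GC boxes began 244 and 86 bases before it. A further GC box at 5 bases before the start ran past the stretch shown. Together with the first 50 bases of the gene, this window was 77.3% G or C. The window held neither the ETS core CCGGAA nor the TATA box TATAAA. RefSeq windows of the same length (GRCh38.p14, both strands searched) were found for 8 of the 10 genes. As some genes have several starts, the 8 genes have 12 windows. The E-box stood in 3 of the 12 (of TERT, NOP10 and GAR1) and in 7.26% of all 35116 promoter windows. The GC box stood in 9 of the 12 and in 45.0% of all windows. CCGGAA stood in 5 of the 12 and in 17.2% of all windows, and the TATA box in 0 of the 12 and in 11.5%. The copies of the E-box are shown with their neighbouring bases, E-box in capitals, so that the flanks of the same 6 letters can be compared. They lie at chr5:1295216-1295241 on the minus strand (TERT), chr15:34343291-34343316 and chr15:34343132-34343157 on the minus strand (NOP10) and chr4:109815783-109815808 on the plus strand (GAR1). A match of letters is a description and no evidence of binding.

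TERT E-box: ccgcgcttccCACGTGgcggagggac
NOP10 E-box, distal: agggacactcCACGTGttttagcctg
NOP10 E-box, proximal: aattgacgaaCACGTGacgcggtcgg
GAR1 E-box: gccagaggggCACGTGgcgccggtga

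In control cells the 10 mRNAs covered a wide range of levels. Per length of the canonical transcript, scaled to the sum over all genes (TPM, mean ± SD, n = 3), NOP10 was at 380 ± 13.9 and DKC1 at 323 ± 43.8, and the difference between them was about the sum of their SDs. GAR1 followed at 124 ± 19.3 TPM and NHP2 at 115 ± 8.25 TPM, which overlapped. WRAP53 was at 56.0 ± 1.39 TPM. The shelterin mRNAs were lower, with TERF2 at 42.1 ± 2.41, TINF2 at 38.6 ± 0.797, TERF1 at 33.4 ± 0.876 and POT1 at 23.5 ± 1.36 TPM. TERT was the least abundant of the 10, at 3.41 ± 0.871 TPM. From NHP2 down, each gene differed from the next by more than the sum of their SDs. TERT was above 45.2% of all protein-coding genes of the count table, whereas POT1, next in the order, was above 67.7%. These shares include genes without a read in control cells, where 15729 protein-coding genes had a read. With the length of all exons in place of that of the canonical transcript, WRAP53 and TERF2 changed places, as did TERF1 and POT1, and TERT remained last.

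TERC (the RNA subunit, which has no poly(A) tail) had between 0 and 3 reads in each library, so these libraries do not measure it.

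Among the 10, TERT had the largest difference between knockdown and control cells, in which it was lower in every knockdown library. Its counts were 181, 103 and 126 in the 3 control libraries, 38, 36 and 38 in the NELFE knockdown and 42 and 45 in the NELFB knockdown. Normalized, these were 7.24, 4.56 and 5.51 CPM in control, 1.58, 1.55 and 1.77 CPM in NELFE knockdown and 1.74 and 1.92 CPM in NELFB knockdown cells. The lowest control library was thus more than double the highest knockdown library, and the 5 knockdown libraries lay close together although the control libraries did not. The means were 5.77 ± 1.36 CPM (SD, n = 3), 1.63 ± 0.119 CPM (SD, n = 3) and 1.83 ± 0.127 CPM (SD, n = 2). The fitted log2 fold change was -1.82 (SE, its standard error, 0.21) in NELFE knockdown cells and -1.66 (SE 0.24) in NELFB knockdown cells, measured against the same 3 control libraries. Over both knockdowns it was -1.75 (SE 0.18), a 3.37-fold lower level. Of the 16367 genes, 6 (0.0367%, TERT included) were as low as this, and 4 of the 6 averaged a log2 CPM of 1 or more. The value was -1.56 without control replicate 1, which had the highest TERT level, and -1.77 without NELFE knockdown replicate 3. In bulk RNA, fewer cells that express a gene and less RNA per cell cannot be told apart.

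**Figure D1:**
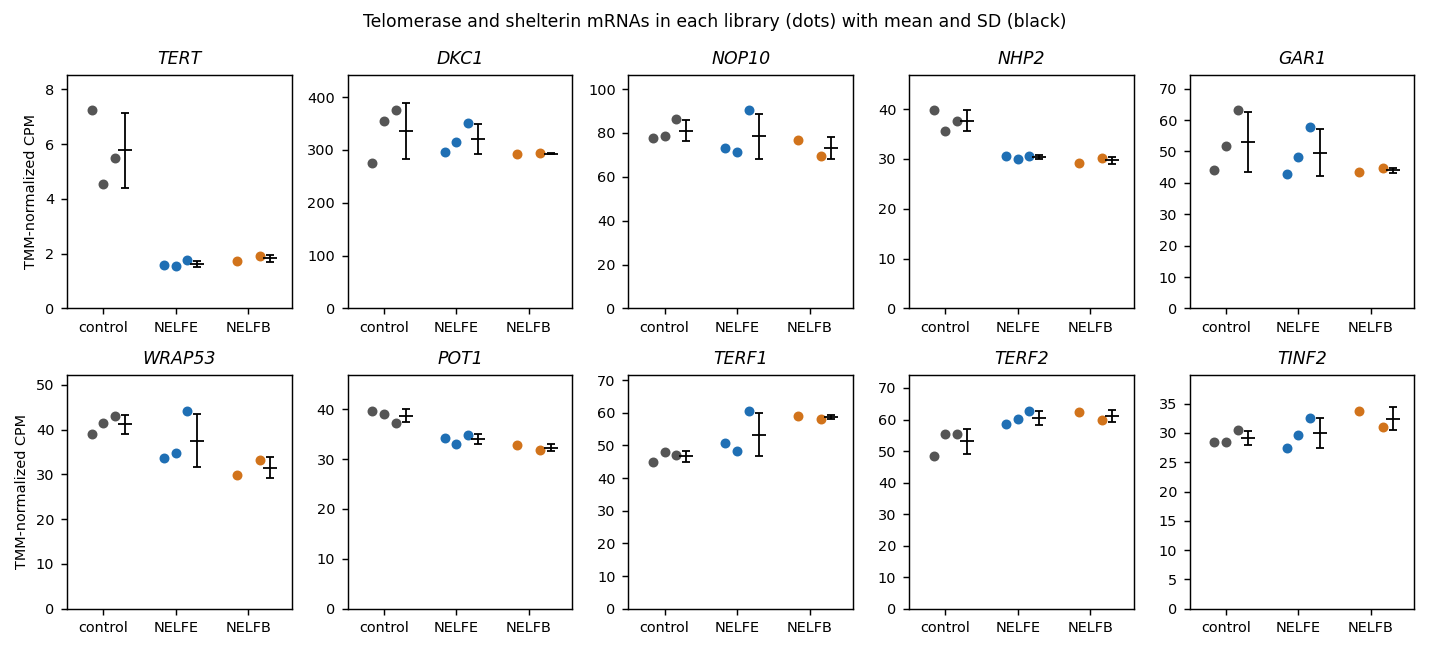
TMM-normalized CPM (linear axes from 0) of each of the 10 genes in the 3 control, 3 NELFE knockdown and 2 NELFB knockdown libraries; dots are libraries, black bars the mean and SD of a group. TERT is at 4.56 CPM or more in control and at 1.92 CPM or less in knockdown libraries, while the other genes differ by a small part of their level.

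The difference between the knockdowns was not used to choose the genes and was tested. For TERT the log2 difference of NELFE from NELFB knockdown cells was -0.17 (SE 0.25, adjusted p = 0.985 in the quasi-likelihood test of edgeR, adjusted by Benjamini-Hochberg over 16852 genes). None of the 10 genes was called, with 0 also at an unadjusted p under 0.05 and 0 by DESeq2. Of all genes, edgeR called 0.315%, with 0.237% higher and 0.0771% lower in NELFE than in NELFB knockdown cells. The largest absolute log2 difference was that of WRAP53, 0.25 (SE 0.13, edgeR adjusted p = 0.983). With 2 NELFB libraries the standard errors of these differences were between 0.08 and 0.25, so small differences were not detectable, and the WRAP53 difference did not pass at about 2 standard errors.

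The H/ACA proteins, which TERC shares with the RNAs that guide pseudouridylation, lay much closer to control. DKC1, the pseudouridine synthase, was at 275, 355 and 375 CPM in control, 295, 316 and 352 CPM in NELFE knockdown and 292 and 294 CPM in NELFB knockdown cells. Control replicate 1 was the lowest of all 8 libraries for this gene, and the groups overlapped. NOP10, the smallest of the H/ACA proteins, was between 77.7 and 86.6 CPM in control and between 69.6 and 90.4 CPM in knockdown libraries. GAR1, which joins the particle late in its assembly, was between 44.0 and 63.1 CPM in control and between 42.9 and 57.8 CPM in knockdown libraries. Groups overlapped for both genes, and the log2 fold changes over both knockdowns were -0.11 for DKC1, -0.08 for NOP10 and -0.16 for GAR1, with standard errors of 0.10, 0.09 and 0.12.

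NHP2, an RNA-binding protein of the same particle, was lower in every knockdown library. It was at 39.8, 35.7 and 37.6 CPM in control, 30.5, 29.9 and 30.7 CPM in NELFE knockdown and 29.3 and 30.3 CPM in NELFB knockdown cells. The highest knockdown library lay below the lowest control library. The log2 fold change was -0.32 (SE 0.07), which is 1.25-fold lower. WRAP53 was between 39.0 and 43.0 CPM in control libraries, at 33.7, 34.7 and 44.3 CPM in the NELFE knockdown and at 29.9 and 33.1 CPM in the NELFB knockdown. NELFE knockdown replicate 3 was the highest of the 8 libraries here. The log2 fold change of -0.23 (SE 0.11) became -0.33 without it.

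The 4 shelterin mRNAs were not shifted in 1 direction. POT1, which binds the single-stranded overhang, was at 39.7, 39.1 and 37.3 CPM in control, 34.2, 33.0 and 34.9 CPM in NELFE knockdown and 32.8 and 31.8 CPM in NELFB knockdown cells. It was lower in all 5 knockdown libraries than in any control library, with a log2 fold change of -0.21 (SE 0.07). TERF1 and TERF2, which bind double-stranded telomeric repeats, were higher in all 5. TERF1 was at 44.8, 48.0 and 47.1 CPM in control, 50.8, 48.3 and 60.7 CPM in NELFE knockdown and 59.1 and 58.1 CPM in NELFB knockdown cells, a log2 fold change of 0.25 (SE 0.09). TERF2 was at 48.4, 55.4 and 55.4 CPM in control, 58.4, 60.1 and 62.9 CPM in NELFE knockdown and 62.4 and 59.7 CPM in NELFB knockdown cells, a log2 fold change of 0.20 (SE 0.07). TINF2, which joins the other two to the POT1 branch, was between 28.5 and 30.5 CPM in control and between 27.5 and 33.8 CPM in knockdown libraries, with overlapping groups and a log2 fold change of 0.08 (SE 0.08).

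**Figure D2:**
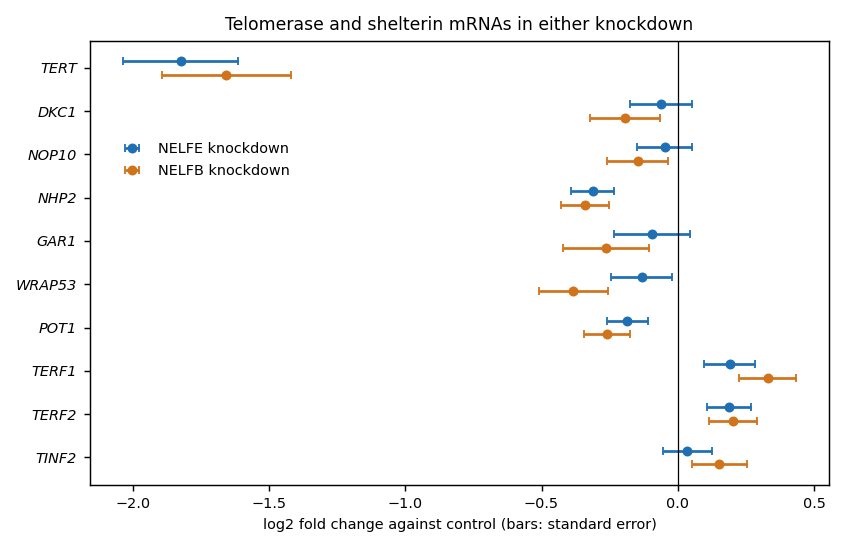
Log2 fold change of each of the 10 genes against control in NELFE knockdown (blue) and NELFB knockdown (orange) cells, with standard errors as bars; both are measured against the same control libraries. TERT lies at -1.82 and -1.66, and the other 9 genes between -0.38 and 0.33.

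Over both knockdowns, 3 of the 10 genes (TERT, NHP2 and POT1) passed an adjusted p of 0.05 as lower and 0 as higher, where 12.7% of all genes tested passed as lower and 13.3% as higher. POT1 passed in 1 of the 8 fits that left out 1 library (the one without NELFE knockdown replicate 3) and did not pass with no filter on low counts. Since the TERT change was known when the list was made, nothing is read from the count. In the NELFE knockdown, 2 of 10 passed (TERT and NHP2) as lower, where 7.04% of all genes did, and 0 as higher, where 7.92% did (15.0% in either direction). In the NELFB knockdown, 2 of 10 passed (TERT and NHP2) as lower, where 8.88% of all genes did, and 1 (TERF1) as higher, where 10.6% did (19.5% in either direction). Non-overlap of the 5 knockdown and 3 control libraries was found for 3 genes as lower, where 14.0% of all genes had it, and for 2 as higher, where 14.7% had it. The median log2 fold change of the 10 genes was -0.13, and that of all genes tested was -0.002.

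The counting ignored strand, so reads from a gene and from a partner on the opposite strand cannot be told apart, and this bears on NHP2 (which overlaps RMND5B), POT1 (POT1-AS1), TERF2 (CYB5B), TINF2 (GMPR2) and, through an unnamed noncoding gene, TERT. DKC1 hosts the small RNAs SNORA56, SNORA36A and MIR664B.

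The guide RNAs are shown because a stretch of the guide beside the PAM that matched a promoter could direct the repressor there.

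NELFE guide: gggcgcggccggagaccgt
NELFB guide: gccgagctggagggcgccg

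Within 500 bases of the canonical start, the longest PAM-side match at TERT was 3 bases for the NELFE guide RNA and 4 bases for the NELFB guide RNA. As long a match was found at 69.4% and 70.5% of 20033 protein-coding genes, and each guide RNA matched its own target over 19 bases. Among the other 9 genes the longest matches were 6 bases at GAR1 for the NELFE guide RNA (1.88% of genes) and 6 bases at TERF2 for the NELFB guide RNA (21.7% of genes). NELFE itself was at 50.5, 49.4 and 48.0 CPM in control and 2.41, 2.36 and 2.98 CPM in NELFE knockdown libraries. NELFB was at 74.3, 72.6 and 79.0 CPM in control and 3.07 and 2.77 CPM in NELFB knockdown libraries. Each knockdown was thus seen in each of its libraries. ADAM22, the target of the control guide RNA, was at 13.7, 12.9 and 11.2 CPM in control and between 29.8 and 47.4 CPM in knockdown libraries.

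The remaining protein-coding members of shelterin were tested, as they were not on the list. ACD (TPP1), the partner of POT1 that recruits telomerase, was at 46.5, 34.6 and 40.6 CPM in control, 29.6, 28.5 and 36.1 CPM in NELFE knockdown and 24.7 and 33.3 CPM in NELFB knockdown cells. It fell by 0.41 on the log2 scale (SE 0.12, edgeR adjusted p = 0.0304), and the groups overlapped at 1 library on either side. It was not called without control replicate 1 (log2 fold change -0.31, edgeR adjusted p = 0.106), control replicate 3, NELFE knockdown replicate 1 or 2 or NELFB knockdown replicate 1 (edgeR adjusted p from 0.0635 to 0.0684 for these 4), and was called in 3 of the 8 fits that left out 1 library. TERF2IP (RAP1), the partner of TERF2, was at 60.8, 67.6 and 71.5 CPM in control, 80.9, 79.6 and 86.9 CPM in NELFE knockdown and 83.7 and 79.5 CPM in NELFB knockdown cells. It rose in all 5 knockdown libraries, with a log2 fold change of 0.30 (SE 0.07, edgeR adjusted p = 0.00947). Near the start of TERF2IP there is a PAM-side match of 10 bases to the NELFB guide RNA (0.334% of genes have one as long), and the gene was at about the same level in both knockdowns.

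Genes that make, mature or load telomerase included decreases and no increase. Of 16 tested, 7 fell (NAF1, RUVBL1, RUVBL2, PARN, ZCCHC8, HSP90AA1 and HSP90AB1) and 0 rose over both knockdowns, where 12.7% of all genes fell and 13.3% rose, with a median log2 fold change of -0.23. PARN, the ribonuclease that trims the 3' end of TERC, was between 76.3 and 92.0 CPM in control and between 63.4 and 69.7 CPM in knockdown libraries, without overlap. Its log2 fold change was -0.34 (SE 0.07, edgeR adjusted p = 0.00567). HSP90AA1, a chaperone that helps assemble active telomerase, was between 3072 and 4558 CPM in control and between 2331 and 3184 CPM in knockdown libraries, and fell by 0.48 on the log2 scale (SE 0.13, edgeR adjusted p = 0.0210). In the NELFE knockdown 2 fell (PARN and HSP90AA1, where 7.04% of all genes fell), and in the NELFB knockdown 4 fell (NAF1, RUVBL1, PARN and ZCCHC8, where 8.88% did). The count depended on single libraries. It was 10 lower and 1 higher without control replicate 1 and 9 lower without NELFE knockdown replicate 3, but 1 lower without control replicate 2 or 3, 2 without NELFE knockdown replicate 1, and 3 and 4 without NELFB knockdown replicate 1 and 2. Calls over all genes moved with the library left out too. In either direction, 26.0% of all genes were called with every library, 25.4% without control replicate 1 and 31.4% without NELFE knockdown replicate 3, but 16.0% and 17.8% without control replicates 2 and 3, 20.2% and 20.8% without NELFE knockdown replicates 1 and 2, and 18.7% and 19.9% without NELFB knockdown replicates 1 and 2. PARN was called in all 8 of these fits, and HSP90AA1 was not called without control replicate 2 (edgeR adjusted p = 0.0668), control replicate 3 (edgeR adjusted p = 0.102) or NELFE knockdown replicate 1 (edgeR adjusted p = 0.0504), nor with no filter on low counts (edgeR adjusted p = 0.0534).

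Of 25 tested genes for telomere replication and end processing, 8 fell (POLA2, PRIM1, DCLRE1B, EXO1, BLM, SLX4, RAD50 and RIF1) and 0 rose, again where 12.7% and 13.3% of all genes did, with a median log2 fold change of -0.15. PRIM1, the primase subunit that starts the C-strand fill-in as well as every Okazaki fragment, was at 67.7, 64.0 and 67.4 CPM in control, 37.6, 37.9 and 42.5 CPM in NELFE knockdown and 32.9 and 37.3 CPM in NELFB knockdown cells. The groups were far apart, with a log2 fold change of -0.82 (SE 0.08, edgeR adjusted p = 0.000111). EXO1, an exonuclease that resects chromosome ends, fell by 0.55 (SE 0.14, edgeR adjusted p = 0.0137), and its NELFE knockdown replicate 3, at 91.6 CPM, lay just under the lowest control library, at 92.0 CPM. Without control replicate 3, EXO1 was not called (edgeR adjusted p = 0.0564) and 5 genes of the list fell. With each other library left out, 6 to 9 fell, 3 rose without NELFE knockdown replicate 3 and 1 rose without control replicate 1. POLA2 and PRIM1 are also part of the general replication machinery, and proliferation genes were lower in the same libraries. MKI67, MCM2, TOP2A, CCNB1 and CDK1 fell, 5 of 6 tested where 12.7% of all genes fell, with PCNA, named as the remaining gene of the 6, at -0.28 (edgeR adjusted p = 0.0994). The largest decreases were -0.54 for MCM2 (SE 0.09, edgeR adjusted p = 0.00196), a subunit of the replicative helicase, and -0.52 for CDK1 (SE 0.10, edgeR adjusted p = 0.003), the mitotic kinase. Whether their decrease bears on the telomere genes was not tested.

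**Figure D3:**
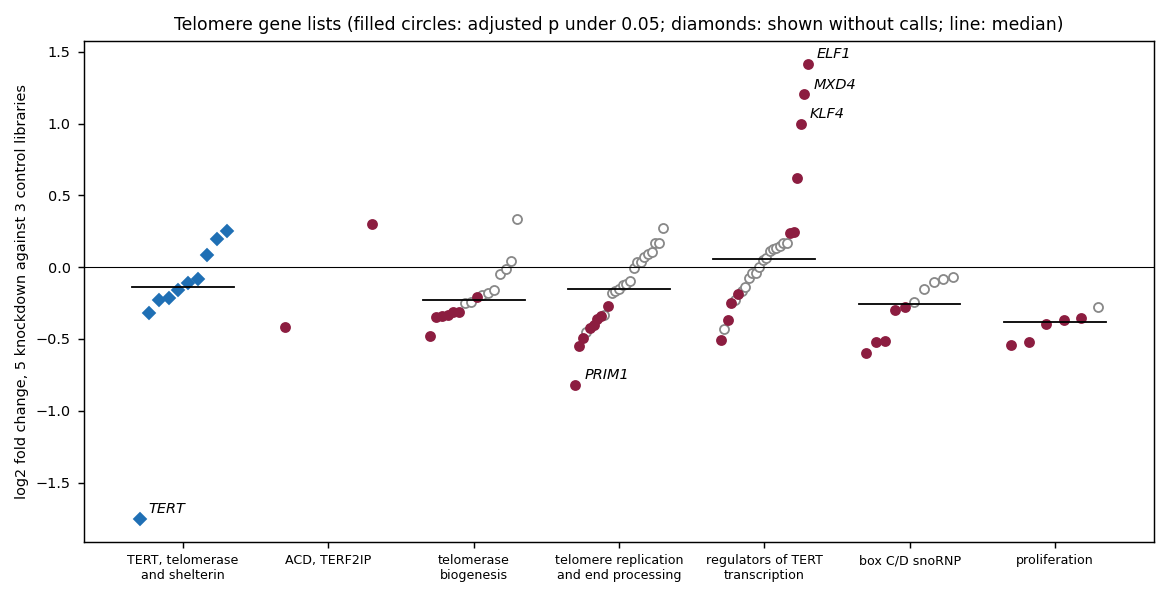
Log2 fold change of 5 knockdown against 3 control libraries (vertical axis) for each tested gene, by list; blue diamonds are the 10 genes, shown without calls, filled circles are genes with an adjusted p under 0.05, open circles the other genes and black lines the medians. TERT, at -1.75, lies below the lowest gene of the other lists, PRIM1 at -0.82.

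A further list held 10 genes, most of them for the box C/D snoRNP, the sister particle that guides RNA methylation, and its assembly, with nucleolar factors such as NOP53 and TCOF1 that are not parts of that particle. Of these 5 fell (FBL, NOP56, TCOF1, NUFIP1 and NOP53), where 12.7% of all genes fell, and 0 rose (3 fell without control replicate 2, control replicate 3 or NELFE knockdown replicate 1, fits in which fewer of all genes were called as well), with a median log2 fold change of -0.26. NOP53, a nucleolar ribosome assembly factor, fell by 0.60 (SE 0.10, edgeR adjusted p = 0.00209), and TCOF1, the nucleolar protein treacle, by 0.52 (SE 0.08, edgeR adjusted p = 0.00144). The list was not compared with the H/ACA proteins.

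Transcription factors reported to act on the TERT promoter moved both ways. Of 26 tested, 6 rose (MXD1, MXD4, ELF1, ETS2, KLF4 and SMAD3) and 4 fell (SP1, E2F1, WT1 and MEN1), where 13.3% of all genes rose and 12.7% fell, with a median log2 fold change of 0.06. Without control replicate 2, 3 rose and 2 fell, without control replicate 3, 3 rose and 3 fell, and without either NELFE knockdown replicate 1 or NELFB knockdown replicate 1, 4 rose and 2 fell. MYC, the E-box activator, was at 1255, 873 and 659 CPM in control, 1043, 1240 and 608 CPM in NELFE knockdown and 965 and 1245 CPM in NELFB knockdown cells. Control and NELFE knockdown libraries each differed about 2-fold among themselves, the groups overlapped, and the log2 fold change was 0.14 (SE 0.26, edgeR adjusted p = 0.741). Reads from any introduced copy of MYC could not be told from those of the endogenous gene. Its partner MAX had a log2 fold change of 0.17 (SE 0.08, edgeR adjusted p = 0.137).

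MXD proteins compete with MYC for MAX and repress from the same E-box. Of the 3 on the list, MXD1 and MXD4 were called, and MXI1, named after its values were seen, was not, at a log2 fold change of 0.05 (SE 0.19, edgeR adjusted p = 0.873). MXD1 was at 17.5, 19.7 and 19.2 CPM in control, 29.5, 29.0 and 29.2 CPM in NELFE knockdown and 28.0 and 28.4 CPM in NELFB knockdown cells, and rose by 0.62 on the log2 scale (SE 0.08, edgeR adjusted p = 0.000352). MXD4 was at 25.9, 27.6 and 20.5 CPM in control, 65.1, 59.3 and 39.9 CPM in NELFE knockdown and 63.4 and 55.9 CPM in NELFB knockdown cells, and rose by 1.20 (SE 0.16, edgeR adjusted p = 0.00059). ELF1, an ETS family factor, was between 3.15 and 4.0 CPM in control and between 7.39 and 11.9 CPM in knockdown libraries, and rose by 1.42 (SE 0.17, edgeR adjusted p = 0.000311). None of these groups overlapped. E2F1, a cell cycle factor, fell by 0.51 (SE 0.12, edgeR adjusted p = 0.0118), and WT1 fell by 0.37 (SE 0.09, edgeR adjusted p = 0.00938).

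**Figure D4:**
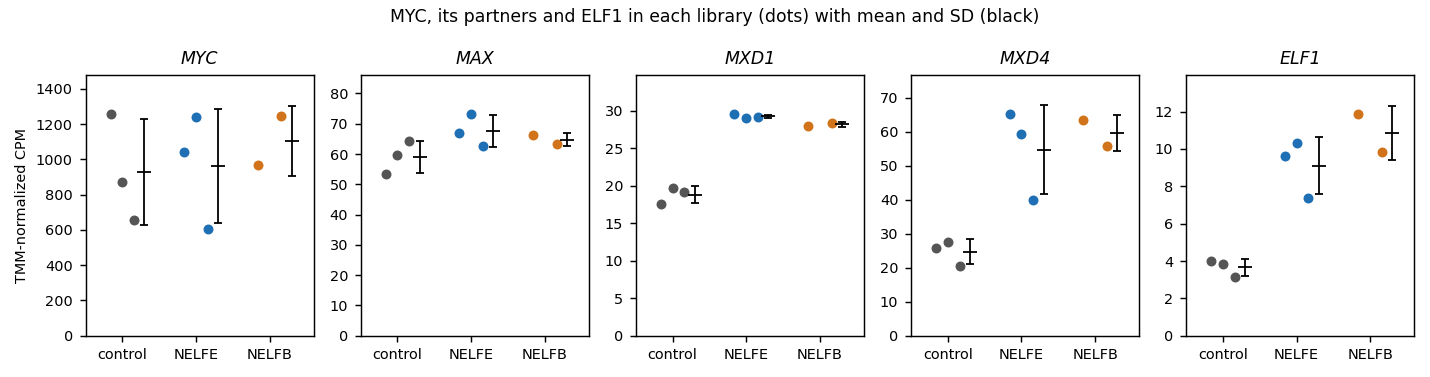
TMM-normalized CPM (linear axes from 0) of MYC, MAX, MXD1, MXD4 and ELF1 in the 3 control, 3 NELFE knockdown and 2 NELFB knockdown libraries; dots are libraries, black bars the mean and SD. MYC libraries overlap between groups, whereas each knockdown library lies above each control library for MXD1, MXD4 and ELF1.

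The lists for telomerase biogenesis, telomere replication and end processing and TERT regulators, with ACD, TERF2IP and TERC and without the box C/D and proliferation genes, hold 71 genes outside the 10, of which 69 were tested. Over both knockdowns 7 rose and 20 fell, 39.1% of those tested, against 26.0% of all genes. In the NELFE knockdown 5 rose and 8 fell (18.8%, against 15.0%), and in the NELFB knockdown 5 rose and 11 fell (23.2%, against 19.5%). The counts over both knockdowns were 27 without control replicate 1 and 33 without NELFE knockdown replicate 3, but 14 without control replicate 2 and 13 without control replicate 3, 16 without NELFE knockdown replicate 1 and 16 without NELFB knockdown replicate 1. In the same fits the share of all genes called was 25.4% and 31.4%, then 16.0%, 17.8%, 20.2% and 18.7%. The lists were chosen with results of these data known, and their excess over the background was not tested. None of the 69 differed between the knockdowns (0 called by edgeR, 1 at an unadjusted p under 0.05).

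TERT was also compared with the genes around it. Of the genes that start within 1 Mb of the TERT start, 21 were tested, and 2 rose and 1 fell, 14.3% against 26.0% of all genes. The nearest tested genes on either side were CLPTM1L, 50031 bases away, at a log2 fold change of 0.02 (SE 0.08, edgeR adjusted p = 0.874), and SLC12A7, at -183005 bases toward lower coordinates, with -0.04 (SE 0.11, edgeR adjusted p = 0.823). CLPTM1L was between 133 and 166 CPM in control and between 145 and 162 CPM in knockdown libraries. The 3 genes that were called lay farther off, with AHRR, a repressor of the aryl hydrocarbon receptor, at 0.83 (SE 0.23, edgeR adjusted p = 0.0231), EXOC3, an exocyst subunit, at 0.43 (SE 0.07, edgeR adjusted p = 0.00212) and NDUFS6, a subunit of respiratory complex I, at -0.26 (SE 0.07, edgeR adjusted p = 0.0126). The number called was 6 without control replicate 1 and 7 without NELFE knockdown replicate 3. AHRR was not called without control replicate 2 or 3 or NELFB knockdown replicate 2 (edgeR adjusted p from 0.0537 to 0.100), nor NDUFS6 without control replicate 3 (edgeR adjusted p = 0.0663).

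**Figure D5:**
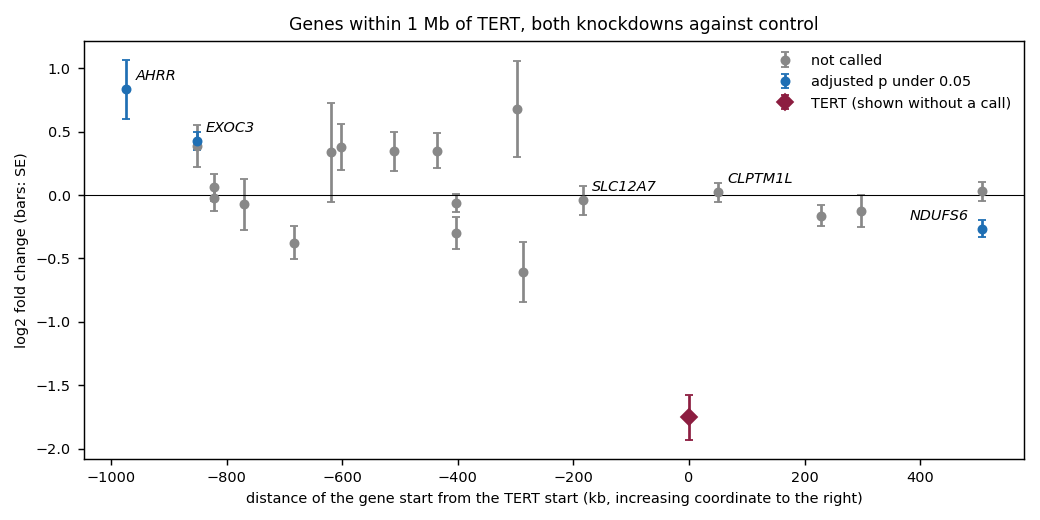
Log2 fold change of both knockdowns against control (vertical axis, bars are standard errors) against the distance of the gene start from the TERT start in kb; blue points have an adjusted p under 0.05, and TERT, shown without a call, is the red diamond. TERT, at -1.75, lies far below the 21 tested genes around it, with CLPTM1L and SLC12A7 near 0.

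Across the 8 libraries, the genes whose log2 CPM followed that of TERT most closely were EIF4EBP1 (Pearson r = 0.996), a translation repressor, DHPS (0.995), the deoxyhypusine synthase, RPS2 (0.994), a ribosomal protein, ASNS (0.993), the asparagine synthetase, and NME4 (0.993), a mitochondrial nucleoside diphosphate kinase. The most opposite were SLU7 (-0.995), a splicing factor, and MXD1 (-0.994). These values describe 8 libraries that share the step between control and knockdown cells, and 716 of 16851 genes had an r of at least 0.9 and 742 an r of at most -0.9. Within the groups, after subtraction of each group mean, r was between 0.848 (NME4) and 0.965 (EIF4EBP1) for the first 5 genes, -0.910 for SLU7 and -0.883 for MXD1, all chosen for their r over the same 8 libraries.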

How the data were processed

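The authors aligned the single-end reads with STAR 2.5.4a to GRCh38 and deposited raw counts of uniquely assigned reads per gene (Gencode v24, without regard to strand). Nothing had been normalized or filtered, replicates were separate columns, and the submitters' processing notes also name FastQC 0.11.6. The whole-number values summed to 22037423 to 24444185 counts per library, all read on the same platform. GENCODE v44 supplied symbols, types, lengths and coordinates through the Ensembl identifiers (a match for 97.4% of genes with any read and 99.9% of all counts), and RefSeq (GRCh38.p14) the promoter windows.

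Genes were filtered (filterByExpr) and fitted in edgeR 4.0.16 (R 4.3.3) with TMM normalization and a robust quasi-likelihood test, with Benjamini-Hochberg adjustment over all genes tested, and a gene was called where its adjusted p was under 0.05. In the combined comparison stood 5 knockdown against 3 control libraries, as in the study, and a model of 3 groups gave each knockdown (16852 genes tested). Fold changes used a prior count of 0.125. Replicates are described by the study as independent, and p-values measure only the spread between these libraries. The procedure was tested on simulated data. The genes and lists were chosen with earlier results of these data known. Named were the 10 genes, the guide targets, ACD, TERF2IP, TERC, MYC, MAX and the 2 largest called increases and decreases of each list. So were the nearest tested and all called genes within 1 Mb of TERT. The 5 genes with the highest and the 2 with the most negative correlation with TERT were named as well. PCNA and MXI1 were named outside this rule, after their values were seen. Further genes appear as members of a list's count or as markers of another cell type. Alternatives were DESeq2 1.42.0, its size factors in edgeR, no filter, a replicate block, a minimum of 10 counts per library throughout, a prior count of 2, a model of 3 groups for the combined comparison and each library left out. Transcript length from all exons was added after the data were seen.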

Additional observations from a re-analysis of the deposited data

How the results depend on the processing

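The log2 fold change of TERT over both knockdowns (-1.75) was between -1.90 and -1.56 with 1 library left out and between -1.76 and -1.71 under the other alternatives. Of the 10 genes, 3 were called over both knockdowns (26.0% of all genes), 5 with DESeq2 (28.0%), 5 with at least 10 counts in every library (27.1%) and 2 to 4 with 1 library left out (16.0% to 31.4%). Among those not called in the main fit, TERF1 was called as higher under 5 of 14 alternatives and TERF2 under 3. WRAP53 was called as lower under 1 of the 14. The NELFE and NELFB knockdowns differed in 0 of the 10 under all 13 alternatives. Of the 71 genes of the other telomere lists, 27 were called over both knockdowns and 13 to 33 with 1 library left out, with 14 without control replicate 2, 13 without control replicate 3, 16 without NELFE knockdown replicate 1 and 16 without NELFB knockdown replicate 1. In the NELFE knockdown 13 were called (15.0% of all genes), and 22 with no filter on low counts (9.69% of 33854 genes). With 1 library left out 5 to 19 were called, where 5.91% to 18.6% of all genes were (6 and 7 without control replicates 2 and 3, 5 and 5 without NELFE knockdown replicates 1 and 2, 7 and 7 without NELFB knockdown replicates 1 and 2). In the NELFB knockdown 16 were called and 4 to 24 with 1 library left out, where 3.45% to 25.9% of all genes were called (9 without control replicate 2, 4 and 5 without NELFB knockdown replicates 1 and 2). Of the genes around TERT, 3 were called over both knockdowns (26.0% of all genes), and 5 with no filter (12.6% of 33854 genes). With 1 library left out 2 to 7 were called, where 16.0% to 31.4% of all genes were (6 without control replicate 1, 7 without NELFE knockdown replicate 3). Without 1 NELFB library the other is assumed to vary like the libraries of the other groups. The cause of these shifts was not tested.

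Groups share replicate numbers, but same-numbered libraries did not deviate together in every case. Correlations of their deviations from the group means were 0.27, 0.05 and 0.45 between control and NELFE knockdown libraries. They were -0.02 and -0.01 between control and NELFB, and 0.10 and 0.20 between NELFE and NELFB knockdown libraries. Between libraries of different numbers, the same 3 comparisons gave -0.38 to 0.23, -0.01 to 0.02 and -0.20 to 0.08. Whether same-numbered libraries were paired was not tested. With the replicate block, the log2 fold change of TERT was -1.74, 5 of the 10 genes and 9 genes around TERT were called over both knockdowns, where calls over all genes went from 4255 to 5636 (26.0% to 34.4%). In the NELFE knockdown 29 telomere genes were called, where calls over all genes went from 2520 to 4763 (15.0% to 28.3%). Besides TERT, 41 named genes were refitted. Of these 29 stayed on their side of the threshold and 12 lost or gained a call. The fitted value changed sign for 3 genes that were never called (MYC, from -0.06 to 0.41, SLC12A7, from -0.13 to 0.05, and CLPTM1L, from -0.07 to 0.09) and for 0 of the others. ACD was called under 9 of 14 alternatives. At 36 to 45 reads per knockdown library, TERT rests on few counts.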
